A study of Homo sapiens with 12 samples.

Results

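The BCL2 family sets whether mitochondria release the proteins that start cell death. The 10 members described here were chosen by name: every row of the deposited count table whose Ensembl identifier maps to 1 of these 10 genes was taken, 10 of 58735 identifiers. They comprised 4 survival members (BCL2, MCL1, BCL2L1 and BCL2A1) and 6 death-promoting members. The death-promoting members comprised 2 pore-forming effectors (BAX and BAK1) and 4 BH3-only genes (BID, BCL2L11, BBC3 and PMAIP1). All 10 passed the filter on low counts, with between 191 counts (BCL2L1) and 7163 counts (BCL2) for a member in a single library.

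The cells were OCI-AML2, an acute myeloid leukemia line of human origin with a rearranged KMT2A gene, and all groups received a guide RNA by lentivirus before their RNA was sequenced. The sgUTX_2 and sgUTX_4 cells carried 1 of 2 guides against KDM6A, the gene of the histone demethylase UTX, and are labelled as knockout. The sgLuc cells carried a control guide and are labelled as wild type. Cells of each guide were grown for 6 days with 1 µM SGC0946, which inhibits DOT1L, a methyltransferase of histone H3, or with its vehicle DMSO, and each of the 6 groups had 2 libraries. The labels do not say whether cells were clones or pools. Nor do they say whether both libraries of a group stem from different cultures, so the spread that the p-values rest on may be technical.

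In this family the survival proteins hold the effectors in check at the mitochondrial outer membrane. BH3-only proteins are the stress sensors: they bind and occupy survival proteins, and some also activate BAX and BAK1 directly. Once BAX or BAK1 forms pores, cytochrome c leaves the mitochondria, APAF1 assembles the apoptosome and caspases are activated. In acute myeloid leukemia BCL2 is the target of the drug venetoclax, and MCL1 and BCL2A1 are known as survival proteins that venetoclax does not bind.

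By GENCODE 29 (GRCh38), the survival genes lie as follows: BCL2 (ENSG00000171791) at chr18:63123346-63320128 on the minus strand, MCL1 (ENSG00000143384) at chr1:150574551-150579738 on the minus strand, BCL2L1 (ENSG00000171552) at chr20:31664452-31723989 on the minus strand and BCL2A1 (ENSG00000140379) at chr15:79960889-79971446 on the minus strand. The effectors are BAX (ENSG00000087088) at chr19:48954815-48961798 on the plus strand and BAK1 (ENSG00000030110) at chr6:33572547-33580293 on the minus strand. The BH3-only genes are BID (ENSG00000015475) at chr22:17734138-17774770 on the minus strand, BCL2L11 (ENSG00000153094) at chr2:111119378-111168447 on the plus strand, BBC3 (ENSG00000105327) at chr19:47220822-47232766 on the minus strand and PMAIP1 (ENSG00000141682) at chr18:59899948-59904306 on the plus strand. All 10 are annotated as protein-coding genes.

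The promoters of the 3 members with the largest range of mean levels over the 6 groups (BCL2A1, BCL2 and PMAIP1) are shown because each of them followed a different pattern over the groups. The RefSeq windows run from 250 bases before to 50 bases after the annotated start (GRCh38.p14) and are written 5′ to 3′ on the strand of the gene. BCL2A1 lies on the minus strand (chr15:79971147-79971446), BCL2 on the minus strand (chr18:63319720-63320019) and PMAIP1 on the plus strand (chr18:59899746-59900045). Capitals mark every match, on either strand, to the TATA box TATAAA, the GC box GGGCGG, the cyclic AMP response half-site TGACG or the E-box CACGTG.
BCL2A1: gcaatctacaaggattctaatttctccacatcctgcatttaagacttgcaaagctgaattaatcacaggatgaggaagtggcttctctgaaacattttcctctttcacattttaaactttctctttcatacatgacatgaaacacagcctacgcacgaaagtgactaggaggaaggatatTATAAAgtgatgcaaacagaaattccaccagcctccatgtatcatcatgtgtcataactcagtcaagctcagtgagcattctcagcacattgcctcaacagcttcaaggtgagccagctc
BCL2: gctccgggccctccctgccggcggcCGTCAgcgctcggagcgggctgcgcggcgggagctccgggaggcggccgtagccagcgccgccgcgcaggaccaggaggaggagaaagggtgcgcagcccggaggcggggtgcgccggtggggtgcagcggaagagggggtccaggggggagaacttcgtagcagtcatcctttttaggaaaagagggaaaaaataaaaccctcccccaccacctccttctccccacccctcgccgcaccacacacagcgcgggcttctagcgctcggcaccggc
PMAIP1: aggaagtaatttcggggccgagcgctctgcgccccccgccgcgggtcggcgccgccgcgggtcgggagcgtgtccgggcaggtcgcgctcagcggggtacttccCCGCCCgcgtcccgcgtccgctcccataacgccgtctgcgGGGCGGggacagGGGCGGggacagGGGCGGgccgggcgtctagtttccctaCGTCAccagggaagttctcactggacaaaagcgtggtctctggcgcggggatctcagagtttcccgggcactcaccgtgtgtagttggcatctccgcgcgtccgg
The BCL2A1 window held 1 TATA box match, the BCL2 window 1 half-site, and the PMAIP1 window 4 GC boxes and 1 half-site, with no match overlapping another. The GC content was 41% for BCL2A1, 70.7% for BCL2 and 71.3% for PMAIP1. Windows were at hand for 9 of the 10 members, all but MCL1, with 14 windows in all because BCL2L1 and BID had several. A TATA box match was found in windows of 2 of these 9 members (BCL2A1 and BCL2L1) and in 11.5% of all 35116 windows of the table. A GC box was found for 6 members and in 45.0% of all windows, a half-site for 4 members and in 24.6%, and an E-box for 3 members and in 7.26%. A member counted where any of its windows matched, while these shares are of single windows, so the counts and shares are not directly comparable. A match describes letters of the sequence and is no evidence of binding.

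Total counts per library lay between 15480493 and 23262141. Levels are given in CPM, read counts brought to a common library total, after TMM scaling. TMM scaling corrects for RNA composition, and its factors were 1.03 to 1.07 in the 8 sgUTX libraries, 0.924 to 0.934 in sgLuc SGC0946 libraries and 0.854 to 0.887 in sgLuc DMSO libraries. The sgLuc DMSO libraries stood apart from the rest: 77 genes of cytoplasmic ribosomal proteins took 17.5% to 18.7% of their counts, against 10.8% to 13.0% in the other 10 libraries. KDM6A, the targeted gene, had 15.2 ± 1.03 CPM with sgUTX_2, 46.0 ± 4.03 with sgUTX_4 and 34.8 ± 0.413 with sgLuc in SGC0946, and 15.1 ± 0.618, 47.8 ± 2.26 and 30.0 ± 2.91 CPM for the same guides in DMSO (mean ± SD, n = 2 each). Its transcript was thus lower with sgUTX_2 and higher with sgUTX_4, so it does not check the label of the sgUTX_4 libraries, and directions below are those of libraries labelled sgUTX. The myeloid genes PTPRC (390 to 1014 CPM) and SPI1 (351 to 470 CPM) were high in all 12 libraries, and KIT was near 0 (0.0877 to 0.624 CPM). Of 17 markers of other cell types, MS4A1, HBA1 and HBB were at 0 in all 12 libraries. Others reached 12.7 CPM (PDGFRB), 8.26 (CD3D), 6.04 (COL1A1) and 5.13 (CD79A) in a library. Of these 17, 7 were tested. In each treatment 4 were lower and none higher in sgUTX than in sgLuc libraries (29.3% of all genes lower with SGC0946, 32.3% in DMSO). SGC0946 raised 5 and lowered none in sgUTX libraries, and raised 3 and lowered 2 in sgLuc libraries. Summed over 17 markers of other cell types the level was 10.0 to 13.4 CPM in sgUTX SGC0946 libraries, 25.8 to 28.0 in sgLuc SGC0946, 3.55 to 4.92 in sgUTX DMSO and 19.2 to 19.8 in sgLuc DMSO. Summed over 11 myeloid markers it was 4690 to 6631, 11602 to 11819, 1579 to 1969 and 1985 to 2122 CPM in the same group order. The lysozyme gene LYZ alone made up most of this sum with SGC0946, at 3840.3 ± 900.3 CPM in sgUTX and 9349.9 ± 146 in sgLuc libraries, against 376 ± 129.8 and 356 ± 47.8 CPM in DMSO. Of the 11 myeloid markers, 6 were higher and 4 lower with SGC0946 in sgLuc libraries (edgeR adjusted p under 0.05). Among the 15060 genes tested, 24.7% passed upward and 24.2% downward there. In sgUTX libraries 5 of these markers were higher and 3 lower, against shares of 17.4% and 16.4%. PTPRC was higher in sgLuc libraries, at 1002 ± 16.3 CPM with SGC0946, against 633 ± 26.5 in DMSO. FLT3 was lower there, at 38.2 ± 0.856 CPM with SGC0946, against 115 ± 1.68 in DMSO. HOXA9 had 30.3 ± 0.0207, against 74.8 ± 3.96, and MEIS1 had 1.32 ± 0.774, against 39.9 ± 1.55 (mean ± SD, n = 4 sgUTX and 2 sgLuc libraries per treatment). These markers, the ribosomal share and the guides move with the groups compared below, and their part in the results was not tested.

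Per kilobase of exon, joined over all annotated transcripts of a gene, MCL1 was the most abundant survival transcript in every group but sgLuc SGC0946, where BCL2A1 was. Comparisons between genes, here and in the sums below, rest on these lengths (11765 bases for BCL2 and 1089 for BCL2A1). The transcripts expressed may be shorter. MCL1 had 60.7 ± 1.00 CPM per kilobase of exon in sgUTX SGC0946 libraries (n = 4), 85.6 ± 1.46 in sgLuc SGC0946 (n = 2), 59.0 ± 0.712 in sgUTX DMSO (n = 4) and 56.1 ± 1.52 in sgLuc DMSO (n = 2; mean ± SD). BCL2A1 had 24.1 ± 1.89, 144.9 ± 9.84, 26.3 ± 2.44 and 47.0 ± 5.43 CPM per kilobase in the same group order. BCL2L1, which encodes BCL-xL, was the least abundant survival transcript in every group, at 5.58 ± 0.161, 4.96 ± 0.692, 5.25 ± 0.469 and 4.13 ± 0.324 CPM per kilobase. Among the death-promoting members, BAX had the highest mean in every group (34.2 ± 1.37, 31.5 ± 1.78, 33.6 ± 2.21 and 23.0 ± 1.35 CPM per kilobase). BCL2L11, which encodes BIM, had the lowest (5.22, 3.46, 5.12 and 3.69). PMAIP1 was near BAX in sgLuc SGC0946 libraries, at 30.7 ± 0.772, and above BAX in the second of them.

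**Figure D1:**
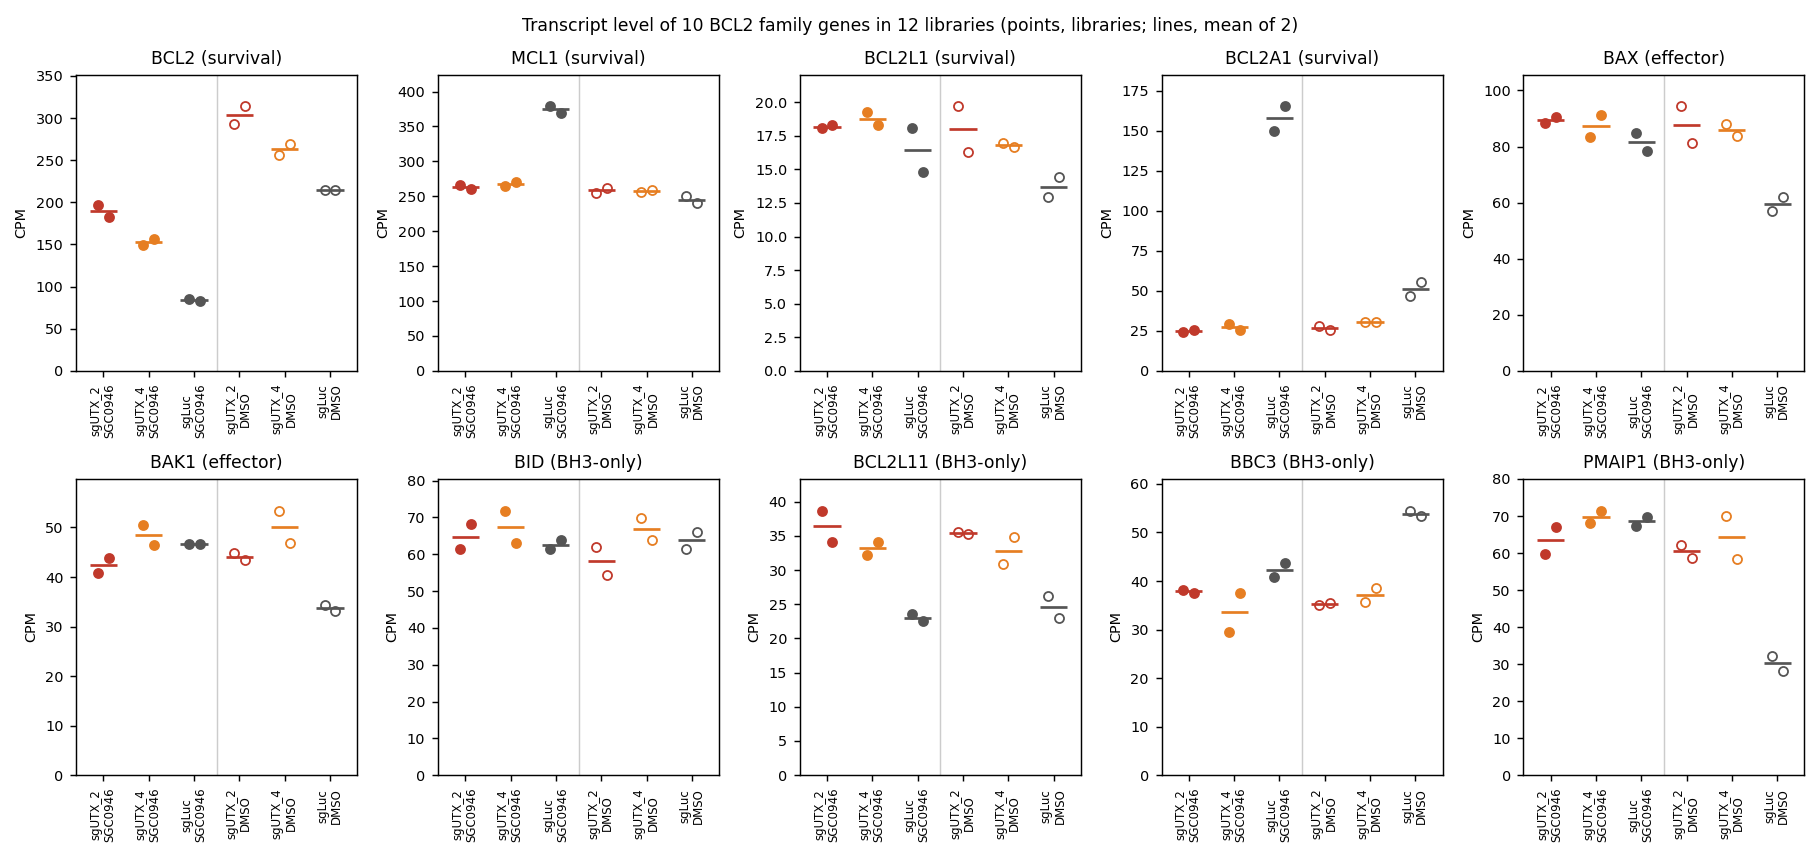
Level of each of the 10 BCL2 family members in CPM (vertical axis, from 0) in each library. Points are libraries, filled for SGC0946 and open for DMSO, and lines are the mean of 2. BCL2A1 and MCL1 are highest in sgLuc SGC0946, PMAIP1, BAX and BAK1 are lowest in sgLuc DMSO, and BCL2 is lower with SGC0946 than with DMSO for every guide.

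In sgUTX cells, 1 of the 10 members responded to the DOT1L inhibitor. BCL2 fell, while the other 9 members did not pass the test (log2 fold changes between -0.13 and 0.10), against 33.8% of all 15060 genes tested that were called in this comparison (17.4% higher and 16.4% lower). A gene is called here where its adjusted p is under 0.05 in edgeR's quasi-likelihood test (Benjamini-Hochberg adjustment over all genes tested). A p that misses the threshold does not show that a level stayed the same, and the standard errors of these 9 log2 fold changes were 0.04 to 0.09. In RNA from whole cultures, fewer cells that express a gene and less RNA per cell cannot be told apart.

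BCL2, the founding survival gene of the family, had 197 and 183 CPM in the sgUTX_2 libraries and 149 and 156 CPM in the sgUTX_4 libraries with SGC0946. In DMSO it had 292 and 314 CPM with sgUTX_2 and 256 and 269.6 CPM with sgUTX_4. All 4 SGC0946 libraries lay below all 4 DMSO libraries. The log2 fold change was -0.72 (SE 0.08, edgeR adjusted p = 4.81e-06), a level 0.606 times that in DMSO. In sgLuc cells BCL2 had 85.5 and 82.6 CPM with SGC0946, against 215 and 215 CPM in DMSO. There it fell by 1.35 on the log2 scale (SE 0.12, adjusted p = 1.65e-07), to 0.392 times the DMSO level. The difference of the sgUTX and sgLuc responses was 0.63 (SE 0.14, adjusted p = 0.00316), so BCL2 fell less in sgUTX cells.

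In sgLuc cells the inhibitor moved 7 of the 10 members, where 48.9% of all genes were called. MCL1, BCL2A1, BAX, BAK1 and PMAIP1 rose, and BCL2 and BBC3 fell. BCL2L1, BID and BCL2L11 did not pass the test. By role, 2 of 4 survival members rose and 1 fell, and 3 of 6 death-promoting members rose and 1 fell, where 24.7% of all genes were called higher and 24.2% lower. Higher genes made up 60.9% of all calls without TMM scaling and 50.6% with it. Without it 7 members were called, 6 higher and 1 lower, with BCL2L1 gained among the higher ones and BBC3 lost. Of all 15060 genes, 4464 were then called higher and 2866 lower.

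BCL2A1, a survival gene of hematopoietic cells also known as BFL-1 or A1, had the largest rise of the members in sgLuc cells. It had 150.2 and 165 CPM with SGC0946, against 47.0 and 55.3 CPM in DMSO. The groups did not overlap, and the level was 3.09 times as high (log2 fold change 1.63, SE 0.10, edgeR adjusted p = 1.12e-11). In sgUTX cells it had 24.4, 25.7, 29.2 and 25.6 CPM with SGC0946 and 27.8, 25.3, 30.7 and 30.8 CPM in DMSO, ranges that overlap. The sgUTX response did not pass the test (-0.13, SE 0.08, adjusted p = 0.225), and the responses of sgUTX and sgLuc cells differed by -1.75 (SE 0.13, adjusted p = 8.73e-10).

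MCL1, a short-lived survival protein on which many myeloid leukemia cells depend, followed the same direction with a smaller change. It had 379 and 369.8 CPM in sgLuc SGC0946 libraries, against 249.97 and 241 CPM in sgLuc DMSO libraries. The log2 fold change was 0.61 (SE 0.06, edgeR adjusted p = 3.23e-08). The 8 sgUTX libraries lay between 255 and 270.4 CPM whatever the treatment, and the responses differed by -0.57 (SE 0.08, adjusted p = 4.67e-06).

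PMAIP1, which encodes the BH3-only protein NOXA, a partner of MCL1 and BCL2A1, had 67.4 and 69.8 CPM in sgLuc SGC0946 libraries, against 32.1 and 28.2 CPM in sgLuc DMSO libraries. Its level was 2.27 times as high (log2 fold change 1.18, SE 0.10, edgeR adjusted p = 2.21e-09). In sgUTX cells it had 59.8, 67.1, 68.1 and 71.5 CPM with SGC0946 and 62.2, 58.6, 70.1 and 58.4 CPM in DMSO. The sgLuc DMSO libraries were thus the low ones, and the other 10 libraries lay between 58.4 and 71.5 CPM. The responses of sgUTX and sgLuc cells differed by -1.09 (SE 0.12, adjusted p = 4.17e-07).

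The effectors BAX and BAK1, which form the mitochondrial pore, showed the same arrangement. BAX had 84.9 and 78.3 CPM in sgLuc SGC0946 libraries, against 57.1 and 62.0 CPM in sgLuc DMSO libraries (log2 fold change 0.46, SE 0.08, edgeR adjusted p = 8.01e-05). The 8 sgUTX libraries had between 81.4 and 94.4 CPM of BAX. BAK1 had 46.7 and 46.7 CPM in sgLuc SGC0946 libraries, against 34.3 and 33.1 CPM in sgLuc DMSO libraries (0.47, SE 0.11, adjusted p = 0.000831). The 8 sgUTX libraries had between 40.8 and 53.4 CPM of BAK1. The responses of sgUTX and sgLuc cells differed by -0.43 for BAX (SE 0.10, adjusted p = 0.00185) and by -0.52 for BAK1 (SE 0.13, adjusted p = 0.00284).

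BBC3, which encodes the BH3-only protein PUMA, was the death-promoting member that fell. It had 40.7 and 43.7 CPM in sgLuc SGC0946 libraries, against 54.5 and 53.3 CPM in sgLuc DMSO libraries (log2 fold change -0.35, SE 0.10, edgeR adjusted p = 0.00727). This call was lost without the first sgLuc SGC0946 library (adjusted p = 0.0772) and without TMM scaling (adjusted p = 0.0502). The difference of its sgUTX and sgLuc responses was 0.34 (SE 0.13, adjusted p = 0.0425), a call that was lost in 9 of the 12 fits without 1 library and with DESeq2 (adjusted p = 0.0868).

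In all, the SGC0946 responses of sgUTX and sgLuc cells differed for 7 of the 10 members, where 34.8% of all genes were called (18.3% positive and 16.5% negative). The difference was negative for MCL1, BCL2A1, BAX, BAK1 and PMAIP1 and positive for BCL2 and BBC3. BCL2L1 (-0.18), BID (0.11) and BCL2L11 (0.13) did not pass this test. Without TMM scaling, 2123 of the differences of all 15060 genes were called positive and 3109 negative. Of these called differences 40.6% were thus positive, against 52.6% with TMM scaling, and 6 members were called, all but BBC3. The sgLuc DMSO libraries enter the difference of every member.

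**Figure D2:**
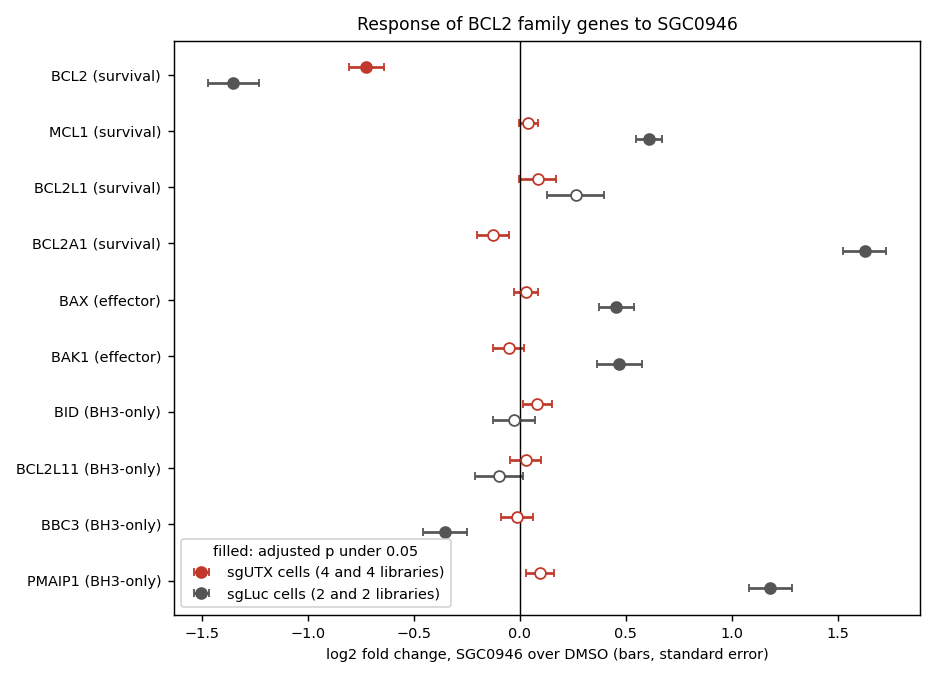
log2 fold change of SGC0946 over DMSO (horizontal axis) for each member in sgUTX cells and in sgLuc cells. Bars are standard errors and filled points have an adjusted p under 0.05. In sgUTX cells the point of BCL2 is filled, at -0.72, and the other 9 lie between -0.13 and 0.10. In sgLuc cells 7 points are filled, from -1.35 for BCL2 to 1.63 for BCL2A1.

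With SGC0946, sgUTX cells held more BCL2 and BCL2L11 and less MCL1, BCL2A1 and BBC3 than sgLuc cells. These were 5 of the 10 members, where 56.9% of all genes were called (27.7% higher and 29.3% lower), a share near that of the members. Without TMM scaling 7 members were called, 5 higher and 2 lower: BCL2L1, BAX and BID joined the higher ones and BBC3 was lost. Of all 15060 genes, 5992 were then called higher and 3226 lower. The same 2 sgLuc SGC0946 libraries serve in this comparison and in the sgLuc response. Of all called genes, 65.0% were higher in sgUTX cells without TMM scaling and 48.6% with it, and the median log2 fold change of all genes was 0.20 and 0.01.

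BCL2A1 had the largest difference of the members, with 24.4 to 29.2 CPM in the 4 sgUTX libraries, against 150.2 and 165 CPM in the sgLuc libraries. It was at 0.166 times the sgLuc level (log2 fold change -2.59, SE 0.08, edgeR adjusted p = 3.96e-17). BCL2 was 2.04 times as high in sgUTX libraries, at 149 to 197 CPM, against 85.5 and 82.6 CPM in sgLuc libraries (1.03, SE 0.11, adjusted p = 6.47e-07). MCL1 had 267, 259.96, 264 and 270.4 CPM in sgUTX libraries, against 379 and 369.8 CPM in sgLuc libraries. It was lower in sgUTX libraries by 0.50 on the log2 scale (SE 0.05, adjusted p = 3.38e-08). In sgUTX cells with SGC0946 the survival transcripts thus held more BCL2 and less BCL2A1 and MCL1 than in sgLuc cells with SGC0946.

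Of the death-promoting members, 2 of 6 passed the test in SGC0946. BCL2L11 (BIM), a BH3-only protein that binds all the survival members, had 38.7, 34.0, 32.2 and 34.1 CPM in sgUTX libraries, against 23.5 and 22.5 CPM in sgLuc libraries. It was 1.51 times as high (log2 fold change 0.60, SE 0.09, edgeR adjusted p = 1.13e-05). Of its exonic bases, 10.9% overlap the long noncoding RNA gene MIR4435-2HG on the opposite strand, and reads of the pair cannot be told apart without the use of strand. BBC3 had 38.1, 37.6, 29.6 and 37.6 CPM in sgUTX libraries, against 40.7 and 43.7 CPM in sgLuc libraries (-0.24, SE 0.09, adjusted p = 0.0271). The BBC3 call was lost without the first sgUTX_4 SGC0946 library (adjusted p = 0.0798), without the second sgLuc SGC0946 library (adjusted p = 0.223) and without TMM scaling (adjusted p = 0.639).

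In DMSO, 8 of the 10 members differed between sgUTX and sgLuc cells, where 61.0% of all genes were called. BCL2, BCL2L1, BAX, BAK1, BCL2L11 and PMAIP1 were higher in sgUTX cells, and BCL2A1 and BBC3 were lower. MCL1 (0.07) and BID (-0.03) did not pass the test. Without TMM scaling both were called higher in sgUTX cells, MCL1 at 0.35 (edgeR adjusted p = 1.37e-05) and BID at 0.24 (adjusted p = 0.0135). All 10 members were then called, 8 higher and 2 lower, where 6557 of 15060 genes were called higher and 3272 lower. With TMM scaling, 28.7% of all genes were called higher and 32.3% lower. Of all called genes, 66.7% were higher in sgUTX cells without TMM scaling and 47.1% with it, and the median log2 fold change of all genes was 0.26 and -0.01. The sgLuc DMSO libraries, which stood apart from the rest, are the comparator here.

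Of the survival members in DMSO, BCL2A1 had 27.8, 25.3, 30.7 and 30.8 CPM in sgUTX libraries, against 47.0 and 55.3 CPM in sgLuc libraries. It was lower in sgUTX libraries by 0.84 on the log2 scale (SE 0.09, edgeR adjusted p = 4.10e-08). BCL2 had 256 to 314 CPM in sgUTX libraries, against 215 and 215 CPM in sgLuc libraries, which was 0.40 on the log2 scale (SE 0.10, adjusted p = 0.00308). BCL2L1 had 19.7, 16.3, 17.0 and 16.7 CPM in sgUTX libraries, against 12.9 and 14.5 CPM in sgLuc libraries (0.35, SE 0.12, adjusted p = 0.0123), a call lost without the first sgLuc DMSO library (adjusted p = 0.152). Of the exonic bases of BCL2L1, 43.0% overlap the antisense gene ABALON, which had 261 counts over all libraries against 3903 for BCL2L1.

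Of the death-promoting members in DMSO, PMAIP1 had the largest difference, with 58.4 to 70.1 CPM in sgUTX libraries, against 28.2 and 32.1 CPM in sgLuc libraries (log2 fold change 1.04, SE 0.09, edgeR adjusted p = 1.28e-09). BAX was 1.46 times as high in sgUTX libraries (0.55, SE 0.07, adjusted p = 8.60e-07) and BAK1 1.39 times as high (0.48, SE 0.09, adjusted p = 0.000114). BCL2L11 had 35.5, 35.2, 30.8 and 34.8 CPM in sgUTX libraries, against 26.3 and 22.9 CPM in sgLuc libraries (0.47, SE 0.10, adjusted p = 0.000192). BBC3 had 35.0, 35.4, 35.6 and 38.6 CPM in sgUTX libraries, against 54.5 and 53.3 CPM in sgLuc libraries. It was lower in sgUTX libraries by 0.58 on the log2 scale (SE 0.09, adjusted p = 6.33e-06). BID, which links death receptors to the mitochondria once caspase 8 cleaves it, was at 54.2 to 71.8 CPM in all 12 libraries and was called in none of these 5 comparisons with TMM scaling.

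**Figure D3:**
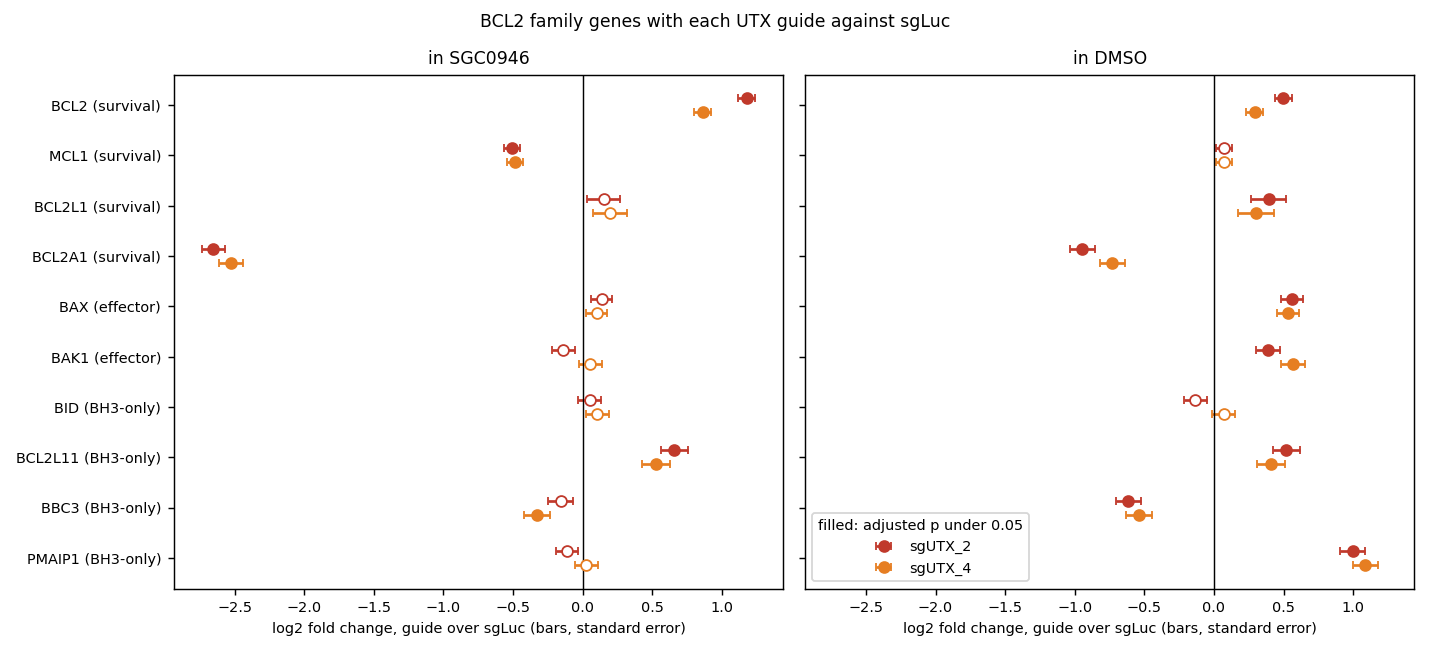
log2 fold change of each UTX guide over sgLuc (horizontal axis) with SGC0946 (left panel) and in DMSO (right panel). Bars are standard errors and filled points have an adjusted p under 0.05. BCL2A1 is at -2.65 with sgUTX_2 and -2.53 with sgUTX_4 in SGC0946, and PMAIP1 at 1.00 and 1.09 in DMSO. BCL2 is at 1.18 with sgUTX_2 and 0.86 with sgUTX_4 in SGC0946, and at 0.50 and 0.29 in DMSO.

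Each guide was also set against sgLuc by itself, in a fit with 6 groups. With SGC0946, sgUTX_2 cells differed from sgLuc cells in 4 members (56.4% of all genes) and sgUTX_4 cells in 5 (56.3%), the extra one being BBC3. In DMSO each guide differed from sgLuc in 8 members (60.4% of all genes for sgUTX_2 and 59.7% for sgUTX_4). BCL2L1 was near the threshold for sgUTX_4 (0.30, SE 0.13, edgeR adjusted p = 0.0459), and this call was lost with DESeq2 and with limma-voom. The SGC0946 response passed the test for BCL2 alone with sgUTX_2 (-0.67, SE 0.06, edgeR adjusted p = 5.55e-11, 27.8% of all genes called) and with sgUTX_4 (-0.78, SE 0.06, adjusted p = 2.11e-12, 26.4%). Both guides share the sgLuc libraries. Without TMM scaling 64.4% to 67.6% of the called genes were higher with a guide than with sgLuc, in the 4 comparisons that had 46.7% to 48.5% with it.

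Between the guides, BCL2 was the 1 member called. In SGC0946 it was lower with sgUTX_4, at 149 and 156 CPM, than with sgUTX_2, at 197 and 183 CPM (log2 fold change -0.32, SE 0.06, edgeR adjusted p = 0.00215), where 3.01% of all genes were called. In DMSO it had 256 and 269.6 CPM with sgUTX_4, against 292 and 314 CPM with sgUTX_2 (-0.21, SE 0.06, adjusted p = 0.0490, 3.49% of all genes). The call in SGC0946 was lost without the first sgUTX_2 library (adjusted p = 0.104) or the first sgUTX_4 library (adjusted p = 0.0985). The call in DMSO was lost without either sgUTX_4 library or the second sgUTX_2 library (adjusted p = 0.0541 to 0.512). The order of BCL2 levels, from high to low, was sgUTX_2 DMSO, sgUTX_4 DMSO, sgLuc DMSO, sgUTX_2 SGC0946, sgUTX_4 SGC0946 and sgLuc SGC0946, and the library values of neighbours in this order did not overlap.

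Survival and death-promoting members were then compared as summed transcript levels, in CPM per kilobase of exon. The survival sum was 105 ± 0.899 in sgUTX SGC0946 libraries (n = 4), 243 ± 7.51 in sgLuc SGC0946 (n = 2), 115 ± 0.733 in sgUTX DMSO (n = 4) and 125 ± 4.24 in sgLuc DMSO (n = 2; mean ± SD). The death-promoting sum was 116 ± 3.55, 114 ± 0.101, 113 ± 6.35 and 86.7 ± 0.201 in the same group order. The survival sum thus stood apart in sgLuc SGC0946 libraries, where it was high, and the death-promoting sum in sgLuc DMSO libraries, where it was low.

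The ratio of the death-promoting to the survival sum was 1.05 to 1.15 in the 4 sgUTX SGC0946 libraries, against 0.460 and 0.481 in the sgLuc SGC0946 libraries. In DMSO it was 0.923 to 1.06 in the 4 sgUTX libraries, against 0.674 and 0.709 in the sgLuc libraries. The sgUTX and sgLuc libraries did not overlap in either treatment. The ratio was not tested, since it pools members whose results were known. It weighs transcripts by abundance and says nothing of protein amounts or of how strongly each pair of proteins binds.

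BCL2A1 made up 22.9% ± 1.72 of the survival sum in sgUTX SGC0946 libraries and 59.7% ± 2.21 in sgLuc SGC0946 libraries, against 22.9% ± 2.13 and 37.4% ± 3.06 in sgUTX and sgLuc DMSO libraries (mean ± SD, n = 4 sgUTX and 2 sgLuc libraries per treatment). BCL2 made up 13.9% ± 1.82, 2.95% ± 0.162, 21.0% ± 1.87 and 14.5% ± 0.491 in the same group order. MCL1 made up 57.9% ± 1.07, 35.3% ± 1.69, 51.5% ± 0.567 and 44.8% ± 2.72. The ratio of BCL2A1 to BCL2 in CPM per kilobase was 1.69 ± 0.337 in sgUTX SGC0946 libraries, against 20.3 ± 1.87 in sgLuc SGC0946 libraries. In DMSO this ratio was 1.11 ± 0.196 in sgUTX libraries, against 2.58 ± 0.298 in sgLuc libraries.

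Within the death-promoting sum, PMAIP1 made up 25.7% ± 1.17 in sgUTX SGC0946 libraries, 26.9% ± 0.700 in sgLuc SGC0946, 24.6% ± 1.03 in sgUTX DMSO and 15.6% ± 1.38 in sgLuc DMSO (mean ± SD). BBC3 made up 9.70% ± 1.18, 11.6% ± 0.584, 10.1% ± 0.775 and 19.5% ± 0.266 in the same group order. BBC3 thus held a larger share than PMAIP1 in the sgLuc DMSO libraries and a smaller share in the others. Averaged over members on the log2 scale instead, so that each member counts equally, death-promoting minus survival levels was -0.38 ± 0.049 in sgUTX SGC0946 libraries, against -0.92 ± 0.041 in sgLuc SGC0946 libraries. In DMSO it was -0.59 ± 0.060 in sgUTX libraries, against -0.91 ± 0.085 in sgLuc libraries. The sgUTX minus sgLuc difference in SGC0946 depends on BCL2A1: without that member its sign turned, to -0.16.

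**Figure D4:**
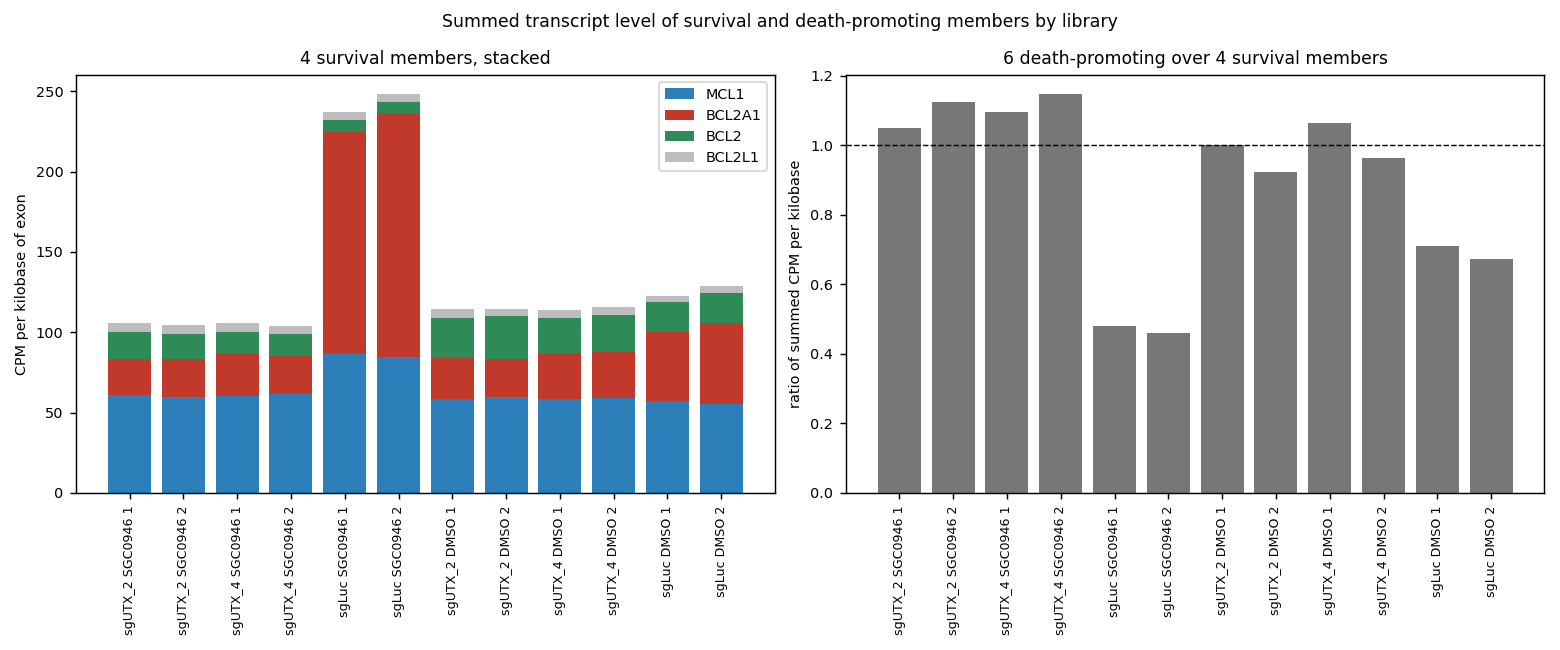
Left, level of the 4 survival members per library in CPM per kilobase of exon, stacked. Right, ratio of the summed death-promoting to the summed survival level per library, with a dashed line at 1. The sgLuc SGC0946 libraries have the highest stacks (237 and 248), mainly BCL2A1, and the lowest ratios (0.460 and 0.481), and the sgUTX libraries have ratios of 0.923 to 1.15.

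Over the 12 libraries, which share groups and therefore are no independent points, levels of members on the log2 CPM scale moved together as follows. PMAIP1 correlated at 0.92 with BAK1 and at 0.90 with BAX (Pearson's r, n = 12 libraries). BCL2L1 correlated at 0.90 with BAX and at -0.85 with BBC3. BCL2 correlated at -0.87 with MCL1, and BCL2A1 at 0.84 with MCL1 and at -0.88 with BCL2L11. Survival and death-promoting members were thus found on both sides of these patterns.

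Among the 9076 genes that averaged 10 CPM or more, the genes whose levels were most like those of BCL2A1 over the 12 libraries were FBXL5 (r = 0.99), RAP2C (0.99) and PICALM (0.99). Those most like BCL2 were SLC43A1 (0.99), an amino acid transporter, PYCR1 (0.99), an enzyme of proline synthesis, and MFAP4 (0.99). Those most like PMAIP1 were RRM2 (0.98), a subunit of ribonucleotide reductase, FAR1 (0.98) and EIF4G2 (0.98). The 12 libraries fall in 6 groups, whose part in these correlations was not tested, and genes picked as the most alike lie near 1 by choice.

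Other genes of the pathway were counted from 5 lists, to be read against the shares of all genes called. These were 27.7% higher and 29.3% lower for sgUTX against sgLuc in SGC0946, 28.7% and 32.3% for the same in DMSO, 24.7% and 24.2% for SGC0946 against DMSO in sgLuc cells, and 17.4% and 16.4% in sgUTX cells. For the difference of the responses they were 18.3% positive and 16.5% negative. The other family genes were a list of 13, of which 9 were tested. With SGC0946, 2 rose and 4 fell in sgUTX cells relative to sgLuc cells, with a median log2 fold change of -0.14, against 0.01 for all genes. BNIP3L, a BH3-like receptor that marks mitochondria for autophagy, had 89.2 to 99.3 CPM in sgUTX libraries, against 360.6 and 376 CPM in sgLuc libraries. It was lower in sgUTX libraries by 1.98 on the log2 scale (SE 0.06, edgeR adjusted p = 7.98e-18). BOK, an effector related to BAX, had 26 counts in the 4 sgUTX libraries and 1 count in the 2 sgLuc libraries, too few for a fold change. In DMSO 3 of the 9 were higher and 4 lower, with a median of -0.14 against -0.01 for all genes. BIK, a BH3-only gene of the endoplasmic reticulum, had 0.810 to 1.23 CPM in sgUTX libraries, against 8.03 and 10.3 CPM in sgLuc libraries, and fell by 3.21 (SE 0.22, adjusted p = 2.83e-11). BOK had 40 counts in the 4 sgUTX DMSO libraries and 0 in the 2 sgLuc DMSO libraries.

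The inhibitor moved 4 of these 9 genes in sgUTX cells, 2 higher and 2 lower, with a median log2 fold change of -0.19 against 0.003 for all genes. BIK had 2.71 to 4.35 CPM with SGC0946, against 0.810 to 1.23 CPM in DMSO (log2 fold change 1.91, SE 0.21, edgeR adjusted p = 1.66e-07), and BNIP3L rose by 0.72 (SE 0.05, adjusted p = 1.78e-10). In sgLuc cells 1 rose and 3 fell, with a median of -0.04 against 0.001 for all genes. There BNIP3L rose by 0.58 (SE 0.07, adjusted p = 3.60e-07) and BNIP3, its close relative, fell by 0.78 (SE 0.09, adjusted p = 9.08e-08). The responses of sgUTX and sgLuc cells differed for 2 of the 9, BIK (2.0, SE 0.31, adjusted p = 2.28e-05) and BNIP3 (0.93, SE 0.11, adjusted p = 8.00e-07), with a median difference of -0.06 against 0.02 for all genes.

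Downstream of the pore, 9 genes of the apoptosome and the caspases were tested, and the medians of this and the next lists stand against the same medians over all genes as above. With SGC0946, 1 was higher and 5 lower in sgUTX than in sgLuc cells (median log2 fold change -0.40). APAF1, the scaffold of the apoptosome, had 102 to 105 CPM in sgUTX libraries, against 166 and 183 CPM in sgLuc libraries. It was lower in sgUTX libraries by 0.75 (SE 0.06, edgeR adjusted p = 2.71e-10). CASP6 was also lower by 0.75 (SE 0.17, adjusted p = 0.000773). In DMSO 2 were higher and 1 lower (median 0.03), namely CYCS, the cytochrome c gene, among the higher ones (0.62, SE 0.11, adjusted p = 0.000146) and CASP9, the initiator caspase of the apoptosome (-0.97, SE 0.13, adjusted p = 1.02e-06). In sgLuc cells the inhibitor raised 4 and lowered 2 (median 0.19), with APAF1 at 1.11 (SE 0.07, adjusted p = 1.77e-11) and CASP6 at 0.70 (SE 0.21, adjusted p = 0.00865). In sgUTX cells it raised 1 and lowered 2 (median -0.03), with DFFA at -0.20 (SE 0.05, adjusted p = 0.00519). The responses differed for 6 of the 9, positively for 1 and negatively for 5 (median -0.45), by -0.96 for APAF1 (SE 0.09, adjusted p = 2.14e-08) and by -0.78 for CASP6 (SE 0.26, adjusted p = 0.0221).

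Of the 6 inhibitors of apoptosis, which bind caspases or act as ubiquitin ligases, none was higher and 2 were lower in sgUTX than in sgLuc cells with SGC0946 (median log2 fold change -0.27), namely NAIP (-2.74, SE 0.31, edgeR adjusted p = 9.08e-08) and BIRC2 (-0.40, SE 0.08, adjusted p = 0.000175). With SGC0946, NAIP had 90 counts in the 4 sgUTX libraries and 251 in the 2 sgLuc libraries. In DMSO it had 58 counts in the 4 sgUTX libraries and 16 in the 2 sgLuc libraries, near the floor. NAIP also has near-identical copies, so its fold changes here and below are uncertain. In DMSO 2 were higher and 1 lower (median 0.16). XIAP, a direct caspase inhibitor, had 32.7 to 37.8 CPM in sgUTX libraries, against 19.0 and 20.2 CPM in sgLuc libraries (0.86, SE 0.09, adjusted p = 1.63e-08). BIRC6 was higher in sgUTX libraries by 0.41 (SE 0.09, adjusted p = 0.000452). In sgLuc cells the inhibitor raised 3 and lowered none (median 0.60), with NAIP at 3.73 (SE 0.45, adjusted p = 4.18e-07) and XIAP at 0.79 (SE 0.10, adjusted p = 7.31e-07). In sgUTX cells it lowered 1, XIAP (-0.22, SE 0.07, adjusted p = 0.0134), and raised none (median 0.0001). The responses differed for 3, all negatively (median -0.53), among them NAIP (-3.16, SE 0.58, adjusted p = 0.000196) and XIAP (-1.01, SE 0.12, adjusted p = 9.38e-07). XIAP was lowest in the sgLuc DMSO libraries, as PMAIP1, BAX and BAK1 were.

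Of 12 genes of the death receptor arm, BID among them, 11 were tested. With SGC0946, 2 rose and 6 fell in sgUTX cells relative to sgLuc cells (median log2 fold change -0.32). CASP8, the initiator caspase that cleaves BID, had 24.2 to 26.0 CPM in sgUTX libraries, against 58.6 and 65.5 CPM in sgLuc libraries. It was lower in sgUTX libraries by 1.33 (SE 0.08, edgeR adjusted p = 6.03e-12). TRADD, an adaptor of TNF receptors, was lower by 1.15 (SE 0.16, adjusted p = 2.42e-06). In DMSO 3 were higher and 4 lower (median -0.05), with TNFRSF10A, a receptor for TRAIL, at 0.73 (SE 0.08, adjusted p = 2.76e-08) and TRADD at -0.79 (SE 0.19, adjusted p = 0.000759). In sgLuc cells the inhibitor raised 9 and lowered none, where 24.7% of all genes were called higher and 24.2% lower (median 0.62), with TNFRSF10B, the other TRAIL receptor, at 1.03 (SE 0.17, adjusted p = 0.000310) and CASP10 at 0.96 (SE 0.12, adjusted p = 6.95e-07). In sgUTX cells it raised 5 and lowered 1 (median 0.16), with TRADD at 0.47 (SE 0.15, adjusted p = 0.0191) and the death receptor gene FAS at 0.43 (SE 0.10, adjusted p = 0.00137). The responses differed for 8 of the 11, positively for 1 and negatively for 7 (median -0.44), by 0.74 for FAS (SE 0.18, adjusted p = 0.00284) and by -0.74 for TNFRSF10B (SE 0.20, adjusted p = 0.0148).

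The last list held 9 regulators of the members. With SGC0946, 3 rose and 4 fell in sgUTX cells relative to sgLuc cells (median log2 fold change 0.001), with the stress-induced transcription factor gene DDIT3 at -1.05 (SE 0.18, edgeR adjusted p = 5.79e-05) and ERN1, a sensor of unfolded proteins, at -0.61 (SE 0.10, adjusted p = 2.55e-05). In DMSO 1 was higher and 3 lower (median -0.06). VDAC2, a channel of the outer mitochondrial membrane that holds BAK1, had 168 to 201 CPM in sgUTX libraries, against 279 and 305 CPM in sgLuc libraries. It was lower in sgUTX libraries by 0.67 (SE 0.07, adjusted p = 1.08e-08), and ERN1 was lower by 0.59 (SE 0.11, adjusted p = 5.92e-05). In sgLuc cells the inhibitor raised 1 and lowered 2 (median -0.13), VDAC2 at -0.84 (SE 0.08, adjusted p = 9.64e-09) and ATF4 at -0.61 (SE 0.09, adjusted p = 3.09e-06). In sgUTX cells it raised 1, ERN1 (0.25, SE 0.09, adjusted p = 0.0326), and lowered 3, DDIT3 the most (-0.92, SE 0.15, adjusted p = 9.11e-05; list median -0.04). The responses differed for 3 (median -0.02), among them VDAC2 (0.67, SE 0.10, adjusted p = 1.20e-05) and FOXO3 (-0.47, SE 0.09, adjusted p = 0.000310).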

How the data were processed

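Raw read counts per gene, not normalized, were deposited by the authors for 12 libraries of OCI-AML2 cells and 58735 Ensembl identifiers. Per the labels' protocols, total RNA was made into libraries with a NEBNext Ultra kit and read as pairs of 150 bases. STAR 2.5.1b and the genome build hg19 are named, per the submitters' processing notes. Since the identifiers are exactly those of GENCODE 29, which annotates GRCh38, it is uncertain on which build reads were counted. Gene symbols, exon lengths and overlaps were taken from GENCODE 29. Which program counted the reads, and whether it used strand, is not given in the sources used here. Reads of overlapping or near-identical genes may therefore be shared or lost. BAK1 has 2 processed pseudogenes, with 27 and 0 counts over all libraries.

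The 12 libraries were grouped by guide and treatment from their labels. Both libraries of each group differed by more than sampling noise (chi-square of 2.85 to 6.29 per gene, over genes with 20 or more counts), and all were kept. The tests used edgeR 4.0.16 in R 4.3.3. Genes were filtered with filterByExpr, libraries scaled with TMM, and contrasts tested two-sided with the robust quasi-likelihood F-test. The p-values were adjusted by Benjamini-Hochberg over 15060 genes. All libraries were fitted in 4 groups, the guides counting as replicates of sgUTX (8 residual degrees of freedom), for 5 contrasts. Single guides were compared in 8 contrasts, fitted in 6 groups with 6 residual degrees of freedom. A standard error is the absolute log2 fold change divided by the square root of F. The fits were also run on simulated counts, with an outcome not given here. Few genes changed in that simulation, as many up as down, so it does not test the scaling of these data. CPM per kilobase divides TMM-scaled CPM by the exonic bases of a gene, joined over all its annotated transcripts. The balance of members used log2(CPM + 1). Alternatives were DESeq2 1.42.0, limma 3.58.1 (voom), RLE factors, library size only, no filter on low counts, the compared groups alone, a replicate block, and leaving out each library.

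The members and the gene lists (other family genes, apoptosome and caspases, inhibitors of apoptosis, death receptor arm, regulators, markers) were chosen with earlier results of these data known. All members are described. Of each list, counts are given, and the 2 called genes with the largest absolute log2 fold change in a comparison are named, except 1 gene that is not reported here. DIABLO maps to 2 identifiers and was left out. The genes most like a member were the 3 with the highest correlation of log2 CPM over the libraries among non-members with a mean of at least 10 CPM.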

Additional observations from a re-analysis of the deposited data

Results flagged for a closer look

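The response to SGC0946 differed between sgUTX and sgLuc cells, by the interaction test of edgeR, for 7 members. The difference of the log2 responses was -1.75 for BCL2A1, -1.09 for PMAIP1, -0.57 for MCL1, -0.52 for BAK1 and -0.43 for BAX. It was 0.63 for BCL2 and 0.34 for BBC3. For PMAIP1, BAX and BAK1 the 2 sgLuc DMSO libraries were the low ones, and the same libraries had the highest share of counts from ribosomal protein genes (17.5% and 18.7%), whose part in the difference was not tested. BCL2A1 and MCL1 were high in the 2 sgLuc SGC0946 libraries.

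Among the 20 sets of 4 sgUTX libraries (10 members in each treatment), 2 held a library far from the others, where chance gives about 1 in 20. BBC3 was lowest in the first sgUTX_4 SGC0946 library, at 29.6 CPM, with a gap of 0.937 of the range of the 4 libraries. BCL2L11 was lowest in the first sgUTX_4 DMSO library, at 30.8 CPM, with a gap of 0.857 of the range.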

How the results depend on the processing

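Of 770 single-member values recomputed under an alternative, 744 kept their side of the threshold. Among these 744 were 18 values that were not called and changed sign, and the others also kept their direction. Of the rest, 19 lost the call, 6 gained one and 1 turned its direction. The turned value was BID for sgUTX against sgLuc in DMSO, 0.24 with library size only (edgeR adjusted p = 0.0135). Of 171 counts of members called, 158 were within 1.5 times the reported count. With library size only, sgUTX_2 against sgLuc in SGC0946 had 7 members called, where 5949 of 15060 genes were called higher and 3232 lower. For sgUTX_4 against sgLuc in SGC0946, 9 members were called, where 5809 genes were called higher and 3214 lower. For sgUTX_4 against sgUTX_2 in DMSO, 0 members were called in edgeR with the compared groups only, with library size only, and in a fit without the sgLuc DMSO group, an alternative chosen after seeing the data. In this order, 99 genes were called higher and 62 lower of 13568, 286 and 212 of 15060, and 232 and 231 of 14922. The reported fit had 259 and 267 of 15060. With an unadjusted p under 0.05 there were 4 in that comparison, a count for which the share of all genes is not given here. DESeq2 and limma-voom each called 1 member there. DESeq2 called 205 genes higher and 211 lower of 12301, and limma-voom 230 and 263 of 15060. Leaving out 1 library gave 0 to 1 members for sgUTX_4 against sgUTX_2 in DMSO and in SGC0946, and 1 to 2 for SGC0946 in sgUTX_2 and in sgUTX_4, where BID or BBC3 joined BCL2. It gave 7 for sgUTX_4 against sgLuc in DMSO, where BCL2L1 was lost each time. The balance of members for sgUTX minus sgLuc in SGC0946 was -0.16 without BCL2A1. Replicate numbers were shared between groups, but same-numbered libraries did not deviate together: correlations of their deviations lay between -0.21 and 0.13 over 15 pairs of groups, and 1 was over 0.1. Without the sgLuc DMSO group, SGC0946 against DMSO in sgUTX cells still had 1 member called and sgUTX against sgLuc in SGC0946 still had 5. Of 14922 genes, 2591 were called higher and 2405 lower in the first of these, and 4107 and 4382 in the second. Comparisons that use sgLuc DMSO libraries cannot be made without them. The replicate block left 0 members called for sgUTX_4 against sgUTX_2 in DMSO, where 243 of 15060 genes were called higher and 234 lower, and changed no other call of a member. The cause of these changes was not tested. Values rest on 2 libraries per group, with at least 191 counts per member and library.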
